A study of Sus scrofa with 9 samples.

Results

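The genes described here are the receptors of luteinizing hormone, prolactin and growth hormone (LHCGR, PRLR and GHR), the inhibin subunits alpha and beta A (INHA and INHBA) and the activin-binding protein follistatin (FST). Their probes were taken by gene symbol from the annotation of the array, either as the gene name or in parentheses in the description, leaving out control spots and antisense probes. These are 6 genes, beside 6578 gene names of the array that a RefSeq table of the pig also holds. They had 15 of the 60889 probes, with 2 each for LHCGR, PRLR, INHA and INHBA, 3 for FST and 4 for GHR. Of these, 12 probes of 5 genes were bright enough to be tested, and no PRLR probe was.

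Testicular biopsies of boars were compared on 9 single-colour arrays, 3 for each group. The control arrays came from fertile boars with normal semen and a normal karyotype (2n = 38,XY). The t(1;14) arrays came from 1 boar, a Landrace × Duroc crossbred carrying a balanced reciprocal translocation between chromosomes 1 and 14, whose semen was oligo-astheno-teratospermic, that is with few, poorly motile and malformed spermatozoa. The oligospermic arrays came from 1 boar with few spermatozoa and a normal karyotype. The labels give no age, no treatment and no breed for the controls. The study names 3 control boars and speaks of them as a pool, with the boars behind each control array not given in the sources used here. Within the t(1;14) and the oligospermic group the 3 arrays share 1 animal. The p-values therefore measure a spread that may be technical in all 3 groups, and the translocation cannot be told apart from anything else that sets these boars apart.

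Luteinizing hormone from the pituitary acts on Leydig cells, between the seminiferous tubules, through LHCGR, a receptor coupled to cyclic AMP that drives the making of testosterone. Prolactin and growth hormone act through PRLR and GHR, single-pass receptors that signal by JAK kinases and STAT factors. Sertoli cells, inside the tubules, and Leydig cells make the inhibin alpha subunit, which pairs with a beta subunit to form inhibin, the hormone that holds back follicle-stimulating hormone, whereas a pair of beta subunits forms activin, which follistatin binds and blocks.

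The probes that carry the results are shown first, since each value below is the signal of 60 bases of a transcript and probes of a gene can report different parts of it. All are written 5′ to 3′. In the GHR pair the capitals mark the 45 bases that both probes share, so these probes are not independent measurements. The follistatin pair and the prolactin receptor probe are shown as examples of dim members.
LHCGR A_72_P302849: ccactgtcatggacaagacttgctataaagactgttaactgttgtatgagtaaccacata
LHCGR A_72_P441564: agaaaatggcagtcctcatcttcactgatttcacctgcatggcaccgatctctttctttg
PRLR A_72_P077336: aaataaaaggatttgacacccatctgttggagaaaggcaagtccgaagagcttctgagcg
GHR A_72_P441429: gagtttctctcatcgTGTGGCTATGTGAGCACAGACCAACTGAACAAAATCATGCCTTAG
GHR A_72_P303059: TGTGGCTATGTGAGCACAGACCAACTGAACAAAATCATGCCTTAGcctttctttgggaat
INHA A_72_P146956: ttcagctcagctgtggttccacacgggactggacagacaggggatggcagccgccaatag
FST A_72_P057356: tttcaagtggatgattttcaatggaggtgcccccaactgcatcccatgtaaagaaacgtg
FST CUST_166_PI428639846: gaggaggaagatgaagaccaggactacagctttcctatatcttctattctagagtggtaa

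In the t(1;14) testis, transcripts of LHCGR and INHA were higher than in the control testis and those of GHR were lower, while INHBA and FST did not pass the test. LHCGR rose 6.65-fold, INHA 2.09-fold and GHR fell 3.84-fold. The GHR fall is that of its brightest probe, and the probe overlapping it fell alike. It lost its call with slide as a block (adjusted p = 0.011), and the other 2 probes, at -0.89 and -0.87 on the log2 scale, did not pass. In the oligospermic testis no member passed the test. Levels are log2 of the background-subtracted spot intensity after quantile normalization of the 9 arrays, a difference of 1 is a doubling of signal, and a probe passed the test at a limma adjusted p of at most 0.01 over all probes tested. A gene is given by its probe with the highest mean signal unless another is named.

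Against control, 3 of the 12 tested member probes rose in t(1;14), where 15.6% of all 40643 tested probes rose, and 2 fell, where 15.6% of all fell. Both LHCGR probes also exceeded an absolute log2 fold change of 2, as did 5.61% of all probes. For 8 of the 12 the 3 t(1;14) arrays did not overlap the 3 control arrays, against 62.0% of all probes. Between t(1;14) and oligospermic, 4 of the 12 were higher in t(1;14), where 27.1% of all probes were, 4 were lower, where 22.0% were, and 10 did not overlap, against 70.9%. None of these 12 also exceeded a log2 fold change of 2, which 6.82% of all probes did. Between oligospermic and control, 0 of the 12 passed the adjusted p of limma, as did 0.0755% of all 39713 probes. There 2 probes, both of LHCGR, had an unadjusted p under 0.05, as did 9.84% of all probes, and did not overlap between the groups, which 15.7% of all probes did not. The median log2 fold change of the 12 was -0.32, -0.42 and 0.00 in that order, beside 0.14, 0.14 and 0.00 over all tested probes. The comparisons share arrays and are therefore not independent of each other.

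**Figure D1:**
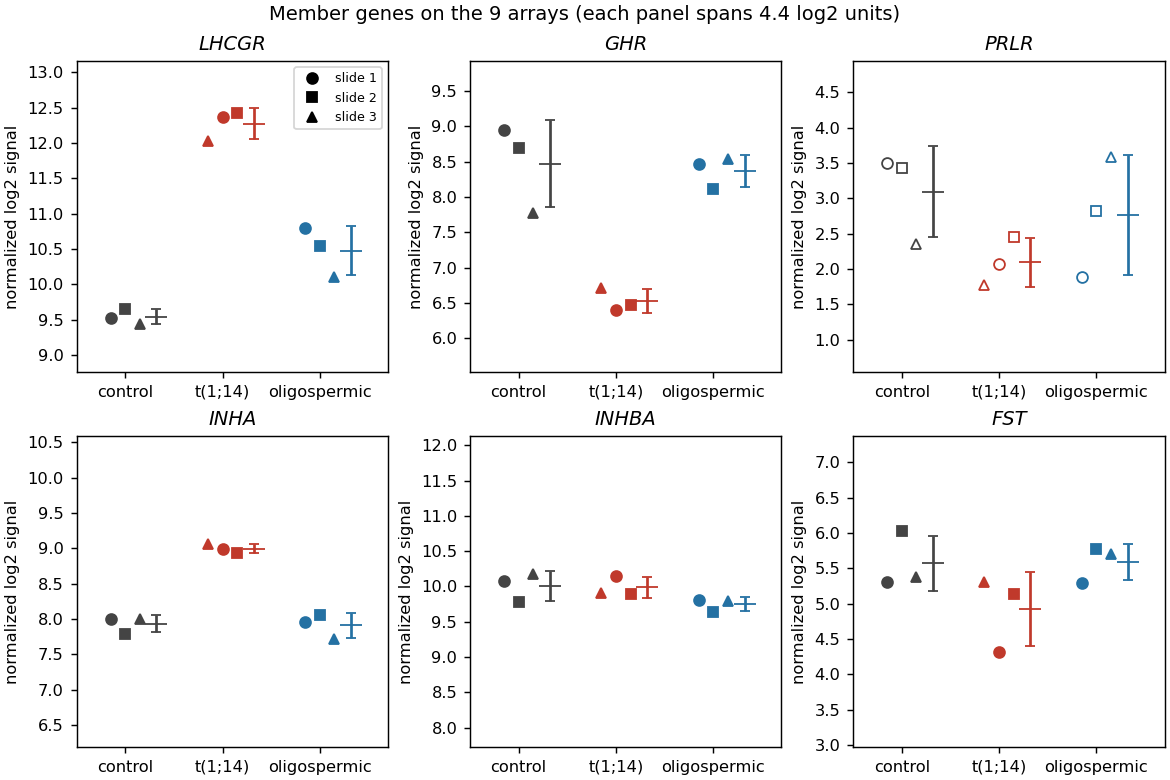
Normalized log2 signal of the brightest probe of each member gene on the 9 arrays, by group, with the mean and SD (n = 3) beside the points and the slide given by the symbol; open symbols are spots not well above background. LHCGR is highest in t(1;14), with oligospermic above control by a difference that did not pass the test. GHR is low and INHA high in t(1;14) alone, and all PRLR spots are open.

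LHCGR, the receptor through which luteinizing hormone stimulates Leydig cells, gave log2 signals of 9.52, 9.65 and 9.44 on the control arrays. The oligospermic arrays gave 10.79, 10.54 and 10.10, and the t(1;14) arrays 12.03, 12.36 and 12.43. The lowest oligospermic array lay above the highest control array, and all 3 t(1;14) arrays lay above both other groups. The log2 fold change of t(1;14) against control was 2.73 (SE 0.15, adjusted p = 1.3e-04), and against oligospermic it was 1.79 (SE 0.20, adjusted p = 4.6e-04), a 3.47-fold difference.

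The oligospermic testis stood between the other groups in LHCGR, 0.94 above control on the log2 scale (95% interval 0.46 to 1.42). This 1.92-fold difference had an unadjusted p of 0.0025 and an adjusted p of 0.19, so it did not pass. In the fit with slide as a block the adjusted p was also 0.19. The differences within the slides were 1.27, 0.89 and 0.66 for oligospermic against control, and 2.84, 2.78 and 2.59 for t(1;14) against control.

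The other LHCGR probe, which matches an earlier stretch of the transcript, kept the same order of groups. It read 8.63, 8.58 and 8.24 in control, 9.94, 9.69 and 9.32 in oligospermic, and 10.69, 11.09 and 10.98 in t(1;14). Again no groups overlapped. Its log2 fold change was 2.44 for t(1;14) against control (SE 0.17, adjusted p = 1.7e-04), 1.17 for oligospermic against control (adjusted p = 0.12) and 1.27 for t(1;14) against oligospermic (adjusted p = 0.0014).

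Markers of Leydig cells moved with LHCGR in t(1;14), and in a bulk biopsy more cells of a type and more RNA per cell cannot be told apart. The study's histology of this boar's testis found severe hyperplasia of interstitial cells and moderate atrophy of the tubules. It gives the boar's plasma luteinizing hormone and testosterone as normal. Of the 5 Leydig markers with a probe, 4 rose against control: the cholesterol carrier STAR by 3.72 on the log2 scale, the steroid-forming enzymes CYP11A1 by 2.57 and CYP17A1 by 2.30, and HSD3B1 by 0.60, with 1 of its 2 probes past the test. With normexp correction 3 of the 5 rose. Over all tested probes, as analysed, 15.6% rose. The fifth, the hormone INSL3, had 0.34 (adjusted p = 0.038), with 4 probes that ran from 0.17 to 1.92 and 1 of them past the test. The INSL3 probe used was the brightest, at 15.73 to 15.82 in control and 16.01 to 16.16 in t(1;14), and was saturated on 2 of the 3 t(1;14) arrays, on 1 oligospermic array and on 0 control arrays. All 5 markers were well above background on every array. The mean log2 signal of the 5 ranged from 11.30 to 11.57 in control, from 13.22 to 13.41 in t(1;14) and from 11.26 to 11.66 in oligospermic. Their part in the LHCGR difference was not tested.

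Within each array the LHCGR signal can be set against the mean of those markers, a quantity chosen after seeing the data, whose change between groups is meaningful although its own level, which depends on the probes, is not. The difference was higher than in control by 0.83 on the log2 scale in t(1;14) and by 0.84 in oligospermic, with no overlap between the arrays in either case. Saturation caps INSL3 on some arrays, so these values are upper limits, and without INSL3 they were 0.43 and 0.77, again with no overlap. The single markers moved unequally. From control to t(1;14) LHCGR changed by at most 2.40 relative to INSL3, by 2.13 relative to HSD3B1, 0.43 relative to CYP17A1 and -0.99 relative to STAR, without overlap, and by 0.16 relative to CYP11A1, with overlap. From control to oligospermic it changed by 0.53 relative to STAR, 0.86 to CYP17A1 and 1.32 to CYP11A1, without overlap, by 0.39 to HSD3B1, with overlap, and by at most 1.12 to INSL3. Between oligospermic and t(1;14) the difference from the mean changed by -0.02 (exact permutation p = 0.80), which averages opposite changes without overlap, of -1.51 relative to STAR, -1.15 to CYP11A1, -0.43 to CYP17A1 and 1.75 to HSD3B1, and without INSL3, saturated in both groups, it was -0.34. For the mean of the 5 and both groups against control, the two-sided exact permutation p was 0.10, the smallest that 3 against 3 arrays allow, and 0.16 after Benjamini-Hochberg adjustment over the 27 such tests computed.

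**Figure D2:**
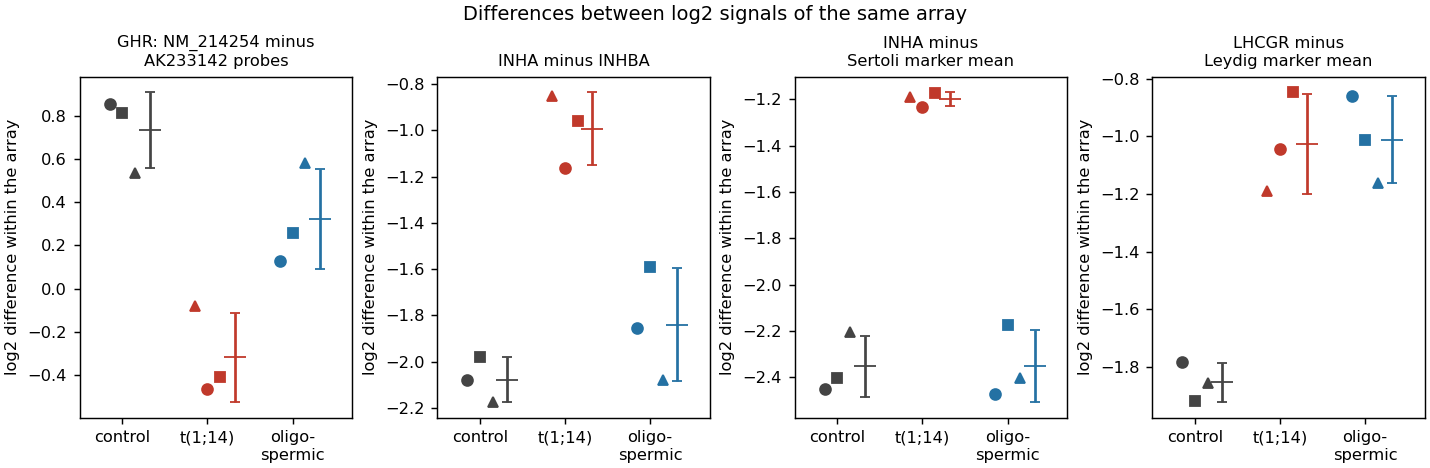
Differences between log2 signals of the same array, by group, with the mean and SD (n = 3) beside the points and the symbol giving the slide (circle 1, square 2, triangle 3); only the change between groups can be read, since the zero depends on the probes. LHCGR relative to the mean of the 5 Leydig markers is higher in both t(1;14) and oligospermic than in control. INHA relative to the mean of the 5 Sertoli markers, which includes WT1, is higher in t(1;14) alone.

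GHR, the growth hormone receptor, was lower in t(1;14) than in both other groups. Its brightest probe read 8.94, 8.69 and 7.77 in control, 8.46, 8.12 and 8.53 in oligospermic, and 6.72, 6.40 and 6.47 in t(1;14). Control 3 was lower than the other control arrays, yet every t(1;14) array lay below it. The log2 fold change against control was -1.94 (SE 0.31, adjusted p = 0.0032), and against oligospermic it was -1.84 (SE 0.15, adjusted p = 1.1e-04), a 3.58-fold difference.

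The GHR call against control depended on the arrays used. Within the slides t(1;14) minus control was -2.54, -2.22 and -1.05, the last with control 3, and with slide as a block the adjusted p of 0.011 missed the threshold. Leaving out control 2 or any of the 3 t(1;14) arrays gave adjusted p values of 0.012 to 0.017, and leaving out control 3 gave -2.29 (adjusted p = 8.1e-04). Against oligospermic the slides gave -2.06, -1.65 and -1.81. Between oligospermic and control the log2 difference was -0.10 (95% interval -0.86 to 0.66, adjusted p = 0.96).

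The 4 GHR probes did not fall by the same amount. The overlapping pair shown above, designed at the end of the coding sequence of the reference transcript, gave log2 fold changes of -1.94 and -1.93 against control (both adjusted p = 0.0032). The other pair, designed on a separate cDNA sequence of the gene, gave -0.89 and -0.87 (adjusted p = 0.018 and 0.026), with no overlap of the groups and without passing the test. Against oligospermic all 4 passed, at -1.84, -1.83, -1.17 and -1.21. On spots outside the symbol rule that hold the same bases as A_72_P303059, the log2 fold change against control was -1.99 and -1.92 (adjusted p = 0.0028 and 0.0021).

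Set against each other within an array, the mean of the first GHR pair minus that of the second was 0.86, 0.82 and 0.53 in control, -0.08, -0.47 and -0.41 in t(1;14), and 0.13, 0.26 and 0.58 in oligospermic. The t(1;14) arrays did not overlap the control arrays or the oligospermic arrays. The mean difference was -1.05 against control and -0.64 against oligospermic on the log2 scale (exact permutation p = 0.10 for both, the smallest possible). Oligospermic lay 0.41 below control with overlap (exact permutation p = 0.20). The unequal change was noticed in these data before it was tested.

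Markers of late germ cells fell with GHR. Of 8 spermatid markers with a probe, 6 were lower in t(1;14) than in control, beside 15.6% of all probes. The mean log2 signal of the list ranged from 14.30 to 14.45 in control, from 12.72 to 12.83 in t(1;14) and from 14.29 to 14.35 in oligospermic. Among them ACRV1, an acrosomal protein, fell by 2.40 and ODF1, a protein of the sperm tail, by 2.52, while the protamine PRM1 had -0.02 (adjusted p = 0.91). Whether the fall in these markers had a part in the GHR difference was not tested.

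PRLR, the prolactin receptor, was not well above background on any of the 9 arrays with either probe. The probe shown above gave log2 signals between 1.54 and 2.43, and the other between 1.77 and 3.58. On a given array the lowest signal called well above background was between 3.20 and 3.99. The call is made spot by spot, and 1 PRLR spot, at 3.58 on oligospermic 3, lay above the lowest such signal of its array, 3.48. No fold change was computed.

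**Figure D3:**
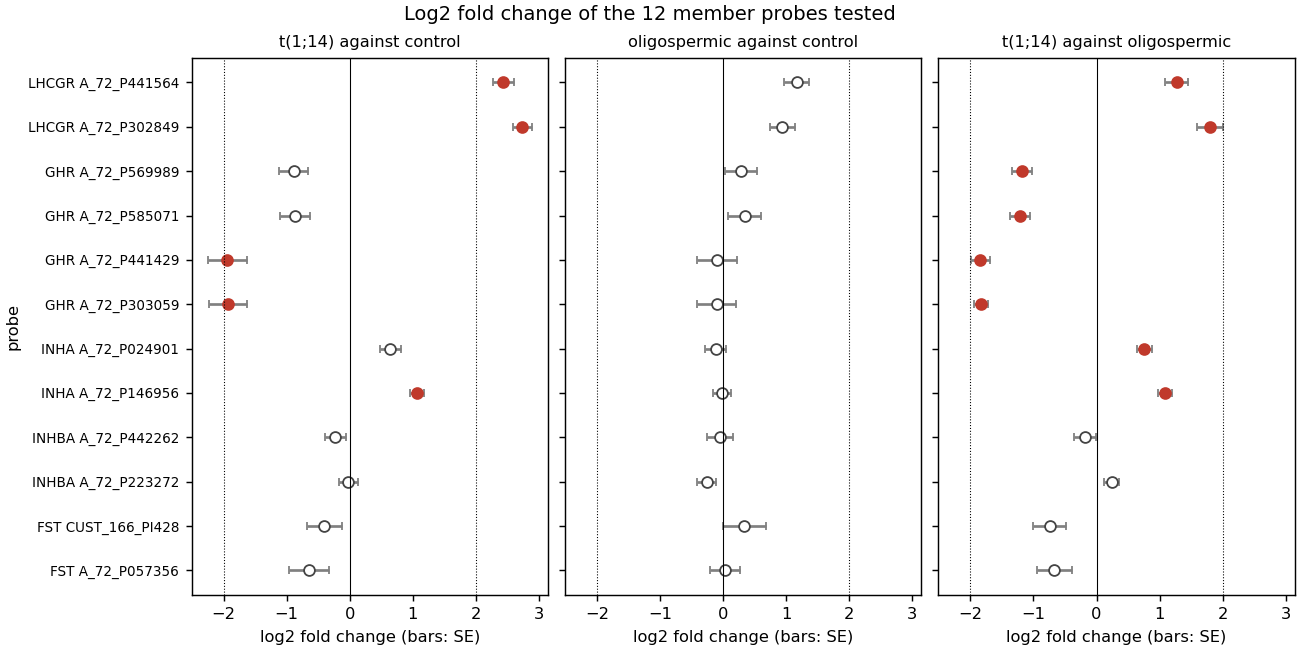
Log2 fold change with its SE for the 12 tested member probes in the 3 comparisons; filled red points passed the adjusted p of 0.01, open points did not, and dotted lines mark a log2 fold change of 2 in either direction. The LHCGR probes stand beyond 2 in t(1;14) against control, the GHR pairs fall to different depths, and no point is filled for oligospermic against control.

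INHA, the alpha subunit found in inhibin and not in activin, was higher in t(1;14) than in both other groups. Its brighter probe by the symbol rule read 7.9997, 7.79 and 8.0001 in control, 7.96, 8.05 and 7.71 in oligospermic, and 9.06, 8.99 and 8.93 in t(1;14). The t(1;14) arrays lay above all others, and control and oligospermic overlapped. The log2 fold change was 1.06 against control (SE 0.12, adjusted p = 7.6e-04) and 1.09 against oligospermic (SE 0.12, adjusted p = 3.5e-04), and the slides gave 0.99, 1.14 and 1.06 against control. Oligospermic minus control was -0.02 (95% interval -0.37 to 0.32).

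The other INHA probe, near the start of the transcript, read 6.70, 6.22 and 6.32 in control, 6.45, 6.25 and 6.18 in oligospermic, and 7.14, 7.14 and 6.89 in t(1;14). The t(1;14) arrays lay above both other groups, which overlapped, and the difference was smaller, with a log2 fold change of 0.64 against control (adjusted p = 0.019, not passed) and 0.76 against oligospermic (adjusted p = 0.0019). Another INHA spot, listed by its reference transcript only and so outside the rule, read 12.84, 13.02 and 13.33 in control, 13.28, 13.22 and 13.05 in oligospermic, and 14.26, 14.05 and 13.96 in t(1;14). Its log2 fold change of 1.03 against control (adjusted p = 0.0035) lay close to that of the brighter probe.

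Sertoli cells are a site of inhibin synthesis. Of 5 Sertoli markers with a probe, 0 were higher by limma in t(1;14) than in control (1 had an unadjusted p under 0.05 and was higher) and 1 was lower, the transcription factor WT1 at -1.43. Over all tested probes 15.6% were higher and 15.6% lower. The list's mean log2 signal ranged from 10.20 to 10.45 in control, from 10.11 to 10.25 in t(1;14) and from 10.12 to 10.44 in oligospermic. Relative to that mean INHA was higher in t(1;14) by 1.15 than in control and by 1.15 than in oligospermic, without overlap (exact permutation p = 0.10 for both, the smallest possible). That mean includes WT1, whereas the median log2 fold change of the 5 markers against control was 0.22. The 1.15 against control therefore rests in part on WT1, and no mean without WT1 was computed. The Leydig markers rose on the same arrays, as given above, and their part in the INHA difference was not tested.

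INHBA, the beta A subunit that INHA pairs with to form inhibin A and that forms activin A with itself, read 10.08, 9.77 and 10.17 in control, 9.91, 10.15 and 9.89 in t(1;14), and 9.82, 9.64 and 9.79 in oligospermic. Control and t(1;14) overlapped, and the log2 difference was -0.02 (95% interval -0.39 to 0.34, adjusted p = 0.91). The t(1;14) arrays lay above the oligospermic arrays by 0.24 (95% interval -0.03 to 0.51, adjusted p = 0.10). The dimmer INHBA probe gave -0.23 against control (adjusted p = 0.27) and -0.18 against oligospermic (adjusted p = 0.40). Brighter INHBA spots listed by the reference transcript only, outside the rule, gave 0.083 and 0.16 against control (adjusted p = 0.62 and 0.40). Against oligospermic they gave 0.32 and 0.34, without overlap and without passing (adjusted p = 0.015 and 0.017).

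Within an array, INHA minus INHBA was higher in t(1;14) by 1.09 on the log2 scale than in control and by 0.85 than in oligospermic, with no overlap of the arrays (exact permutation p = 0.10 for both, the smallest possible, and 0.16 after adjustment over the 27). The beta B subunit INHBB, which is no member, had a log2 fold change of 0.25 against control (adjusted p = 0.33), and INHA minus INHBB was 0.81 higher in t(1;14) than in control, also without overlap.

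FST, which binds activin and keeps it from its receptors, was dim and its difference from control did not pass the test. Its brightest probe read 5.30, 6.02 and 5.38 in control, 5.31, 4.32 and 5.14 in t(1;14), and 5.30, 5.78 and 5.70 in oligospermic. The groups overlapped, with 1 t(1;14) array well below the rest. The log2 difference was -0.65 against control (95% interval -1.42 to 0.13, adjusted p = 0.14) and -0.67 against oligospermic (95% interval -1.34 to 0.01, adjusted p = 0.076). With slide as a block the latter had an adjusted p of 0.0096, while the former had 0.067. Without t(1;14) replicate 2 the differences were -0.34 and -0.37, without control 2 the former was -0.42, and with normexp correction they were -0.21 and -0.23. The probe that ends at the stop codon, well above background on 2 of 3 control and t(1;14) arrays and all 3 oligospermic arrays, gave -0.41 against control (adjusted p = 0.26) and -0.74 against oligospermic (adjusted p = 0.043). The last FST probe was not well above background on any array.

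**Figure D4:**
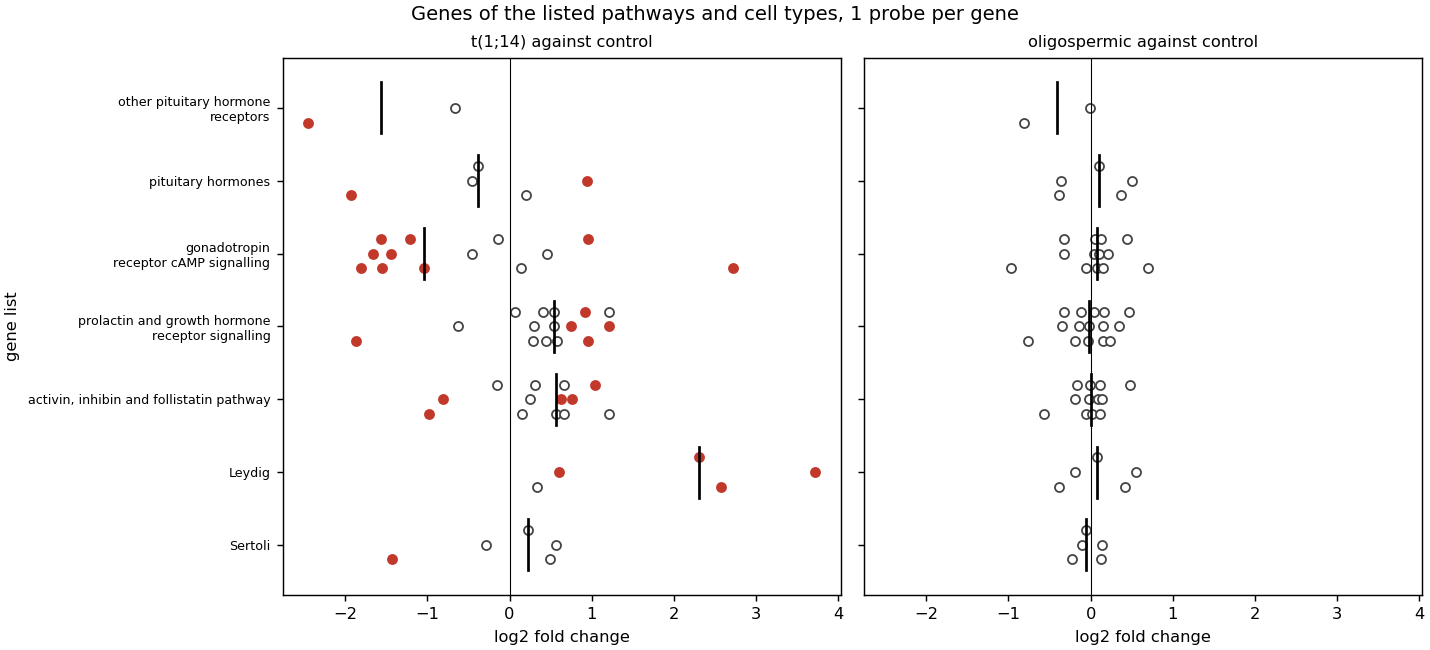
Log2 fold change of every tested gene of 5 pathway lists and of the Leydig and Sertoli marker lists, 1 probe per gene, against control in t(1;14) and in oligospermic; filled red points passed the adjusted p of 0.01 and the vertical bars are list medians. Most cyclic AMP genes of the gonadotropin list lie below 0 in t(1;14), the Leydig markers lie above it, and no gene of these lists is filled for oligospermic.

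The other receptors of pituitary hormones were mostly out of reach. Of 8 such genes, 2 could be tested, FSHR and TSHR, and MC2R, MC5R, GHRHR, GNRHR, OXTR and AVPR1A were not bright enough. FSHR, the Sertoli cell receptor of follicle-stimulating hormone, read 8.98, 8.43 and 8.95 in control, 8.28, 7.95 and 8.13 in t(1;14), and 8.18, 8.10 and 7.64 in oligospermic. Its log2 difference from control was -0.67 in t(1;14) (adjusted p = 0.026) and -0.81 in oligospermic (adjusted p = 0.28), with both groups wholly below control and neither past the test. TSHR, the thyrotropin receptor, fell by 2.45 on the log2 scale in t(1;14) against control (SE 0.16, adjusted p = 1.5e-04), with signals from 5.24 to 5.44 against 7.56 to 8.06 in control, and both of its probes passed.

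Of the hormones themselves, 5 of 8 listed genes were tested, and FSHB, GH1 and GNRH1 were not bright enough. LHB, the beta subunit of luteinizing hormone, read 7.46, 7.56 and 7.59 in control, 5.53, 5.50 and 5.78 in t(1;14), and 7.65, 7.58 and 7.68 in oligospermic. It fell by 1.93 on the log2 scale in t(1;14) against control (SE 0.12, adjusted p = 1.5e-04), and 3 of its 4 tested probes made the same call, with values from -3.35 to -0.37. PRL, prolactin, was dim, well above background on all 3 t(1;14) arrays but on 0 of the control arrays, so it entered the test only through the group where it was high and its higher call is no independent result. It was at least 1.69-fold higher in t(1;14), with signals of 4.48, 4.39 and 4.31, and the other PRL probe tested had 0.96 and did not pass. The shared subunit CGA had -0.38, TSHB 0.19 and POMC -0.46 (adjusted p = 0.15, 0.20 and 0.048), and the list's median was -0.38.

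Of 24 genes listed for the gonadotropin receptor's cyclic AMP signalling, 15 had a probe and 13 were tested. In t(1;14) against control 2 rose, 7 fell and 4 did not pass, with a median of -1.05. Over all tested probes 15.6% rose and 15.6% fell. The cyclases ADCY3, ADCY7 and ADCY9 had no probe, and those that fell include ADCY10, the cyclase tested, at -1.21, and CREM at -1.55. Whether signalling by the receptors changed was not tested. GRK5, a kinase that desensitizes receptors of this class, rose by 2.72, from 6.98, 6.26 and 6.76 in control to 9.28, 9.65 and 9.22, with 2 of its 3 probes past the test and the lowest at 1.05. Among those that fell were PRKAR2A, a regulatory subunit of protein kinase A, by 1.80, the cyclic AMP-responsive factor CREB1 by 1.66 and the phosphodiesterase PDE4B by 1.57. For PDE4B 1 of 3 probes passed, and they ran from -1.57 to -1.03. GNAS, the stimulatory G protein subunit, rose by 0.95, although its 15 tested probes ran from -0.93 to 1.11 and 13 of them passed in the same direction. On the same arrays 6 of 8 spermatid markers fell, with a median of -1.95, and their part in the list's change was not tested.

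Downstream of the prolactin and growth hormone receptors, 4 of 15 tested genes rose, 1 fell and 10 did not pass, with a median of 0.54. Over all tested probes 15.6% rose and 15.6% fell. The phosphatase PTPN6 rose by 0.95 on the log2 scale and the kinase JAK2, which these receptors activate, by 0.92, although its 3 probes ran from 0.60 to 0.92 and 1 of them passed. SOCS6, of the family that dampens cytokine signals, fell by 1.87, from 9.12, 9.50 and 9.52 in control to 7.46, 7.54 and 7.51. IGF1, a growth factor that growth hormone induces, had -0.62 (adjusted p = 0.014) and did not pass.

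Of the activin and inhibin pathway, 13 of 19 listed genes were tested: 3 rose, 2 fell and 8 did not pass, with a median of 0.57. Over all tested probes 15.6% rose and 15.6% fell. TGFBR3, betaglycan, the co-receptor through which inhibin binds, rose by 1.04 (SE 0.20, adjusted p = 0.0065) in the brighter of the 2 tested probes, the other having -0.09. ACVR1B, a type I activin receptor, fell by 0.97, and the signal carrier SMAD2 by 0.81, with its other probe at -0.74 and also past the test. SMAD4 rose by 0.76, although its 6 probes ran from -1.30 to 0.76 and 2 of them made this call. In oligospermic against control, 0 of the 47 tested genes of these 5 lists passed the limma test, and 8 had an unadjusted p under 0.05, as did 9.84% of all 39713 probes.

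Against oligospermic, t(1;14) gave 0 higher and 1 lower of 2 tested for the receptor list, 2 and 2 of 5 for the hormones, 2 and 7 of 13 for the cyclic AMP list, 7 and 2 of 15 for the prolactin and growth hormone list, and 6 and 2 of 13 for the activin and inhibin list. Over all tested probes 27.1% were higher and 22.0% lower in this comparison. The higher counts of the last 2 lists hold SOCS3 and ACVR2B, an activin receptor, which entered this comparison only through the t(1;14) arrays, where they were high. Their higher calls are therefore no independent results. With normalization over the 6 arrays the activin and inhibin list had 5 higher. BAMBI, a decoy receptor that dampens signals of this family, was higher by 1.77 on the log2 scale there (SE 0.15, adjusted p = 1.4e-04), and had 1.21 against control (adjusted p = 0.021, not passed). SOCS3, of the same family as SOCS6, was higher than in oligospermic by 1.98, with 1 of 3 oligospermic arrays well above background, and the phosphodiesterase PDE4A was lower, at -1.88 on the log2 scale. Among the remaining marker lists, t(1;14) against control gave 1 higher and 0 lower of 3 tested spermatogonium markers, 1 and 1 of 4 for spermatocytes, 2 and 1 of 7 for peritubular and vascular cells, and 1 and 0 of 4 for immune cells. Over all tested probes 15.6% were higher and 15.6% lower in that comparison. Against oligospermic these marker lists gave 2 and 0, 2 and 1, 3 and 2, and 4 and 0, the immune markers with a median of 1.15, and their part in the list changes was not tested. With normexp correction the immune markers had 3 higher there and a median of 0.59. Scaling by the 75th percentile kept the sign of all 5 pathway list medians in t(1;14) against control, as did normexp correction, which brought the medians to -0.96 for the receptors, -0.14 for the hormones, -0.64 for the cyclic AMP list, 0.40 for the prolactin and growth hormone list and 0.24 for the activin and inhibin list. With it PRL no longer passed and the activin and inhibin list had 2 higher and 1 lower. The median of all probes in that comparison was 0.14 as analysed, 0.16 with the former and 0.069 with the latter.

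For each tested member, and so not for PRLR, the 3 genes with the most similar course over the 9 arrays were sought among 5568 named genes. Similarity was the root mean square difference of their log2 levels after centring each on its mean. For LHCGR these were MGST1 at 0.20, RDH12 at 0.25 and a probe of CYP17A1 at 0.25. For GHR they were TTC39A at 0.18, MAPK6 at 0.19 and RYR1 at 0.19. INHA had TMEM59 at 0.043, GPI at 0.059 and TGS1 at 0.063, INHBA had CA5B, TPM1 and CIC at 0.073 to 0.084, and FST had GBF1, ATP2C1 and UCHL3 at 0.15 to 0.17. All are differences on the log2 scale over 9 arrays, where a gene that hardly varies finds close matches easily.

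Between 37087 and 40632 probes per array were well above background and 52 to 275 were saturated, and the 3 slides each carried the 3 groups, with 1 array apiece. The median SD between arrays of a group over 41105 probes was 0.24 in control, 0.13 in t(1;14) and 0.18 in oligospermic, and with 3 arrays a group the precision of every value is limited.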

How the data were processed

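Testis RNA was labelled with cyanine 3 and hybridized to a custom porcine 60K Agilent array. The authors deposited each spot's intensity as read by Agilent Feature Extraction 11.5.1.1, background-subtracted and detrended, and not normalized across arrays. The log2 values that the authors deposited for 38759 probes were quantile normalized over the 9 arrays: sorted, they differ between arrays by at most 0.0016 at any rank. The 12 tested member probes are listed there, and the other 3 are not. The sources used here name limma for the authors' own comparison.

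Here the processed intensities of the 60889 non-control probes were log2-transformed, quantile normalized over the 9 arrays, and compared with limma 3.58.1 (R 4.3.3) on the 6 arrays of each comparison, with Benjamini-Hochberg adjustment over all probes retained. A probe was retained if well above background and without an outlier flag on 2 or more arrays in any of the groups. The threshold of 0.01 on the adjusted p and of 2 on the log2 fold change are those of the methods. Intervals are 95%. Exact permutation tests were two-sided and exchanged arrays freely across slides, so they leave out the pairing by slide.

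The members, gene lists and tests were chosen with earlier results of these data known. A list gene is given by its brightest retained probe. Named are all members, lists of up to 8 genes, markers, and 3 similar genes for each tested member. Also named, from each pathway list, are the 4 genes with the largest change among those that passed in a comparison. ADCY10, CREM, IGF1, INHBB and GNAS were chosen after their values were seen. A gene of the prolactin and growth hormone list and a probe sequence are not reported here.

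Arrays of the same replicate number in oligospermic and control lay on the same slide, and their deviations from the group means correlated at 0.478, 0.136 and 0.101, so these numbers pair the arrays. Those of t(1;14) and control correlated at -0.285, -0.194 and 0.139 and do not. By slide, however, the deviations of t(1;14) correlated at 0.339, 0.109 and 0.119 with control and at 0.489, 0.292 and 0.330 with oligospermic, so slide pairs the arrays of every comparison. The main test has no term for slide, and the fit with slide as a block is an alternative.

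Alternatives were normalization over 6 arrays, scaling by the 75th percentile, normexp with an offset of 50, the authors' log2 values, 2 other filters, a block for slide or for replicate number, 1 model of all 9 arrays, an intensity trend, other thresholds, the median over probes, and leaving out each array. Genome positions were not used here.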

Additional observations from a re-analysis of the deposited data

How the results depend on the processing

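In t(1;14) against control and against oligospermic, LHCGR and INHA kept their direction and passed the adjusted p of 0.01 in every alternative fit of their brightest probe, leave-outs included; GHR kept its direction in both, passed in every such fit against oligospermic, and against control lost the call with slide as a block and without control 2 or any 1 t(1;14) array. Of the 5 tested genes, 3 passed against control and 3 against oligospermic. Requiring a log2 fold change of 2 in either direction as well left 1 (LHCGR) and 0. With the replicate number as a replicate block the counts were 3 against control, 0 for oligospermic against control and 3 against oligospermic, and with slide as a block 2, 0 and 4. Leaving out 1 array gave 2 to 3, 0 to 0 and 3 to 3. LHCGR in t(1;14) against control ranged from 2.60 to 2.73 on the log2 scale over these fits, was 2.58 as the median over its probes, which has no test, and ranged from 2.66 to 2.86 over the leave-outs. Values near 0 that had not passed changed sign when 1 array was left out: INHBA in t(1;14) against control (-0.14 to 0.059), and in oligospermic against control GHR (-0.45 to 0.14), INHA (-0.093 to 0.075) and FST (-0.11 to 0.25), which scaling by the 75th percentile also turned (-0.018). FST in t(1;14) against oligospermic passed with slide as a block only. The cause of these changes was not tested. With normexp correction, the GHR log2 fold change against control was -1.48, and the median over its probes was -1.41. Signal near background limits FST and PRLR, and 1 boar per affected group limits every comparison.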
